A study of Arabidopsis thaliana with 4 samples.

Results

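The data describe H4K20me1, histone H4 with a single methyl group on lysine 20, over the 1282 tiles of plates TC00 to TC13, of 21743 tiles with a value on the array (5.90%). A tile is a spot of genomic DNA named by its set (letters), plate (digits), plate row (A to H) and column. These tiles were taken by name, but the span of plates was chosen with earlier results of these data known. Their level, and the calls of lower plates and tiles below, therefore only describe them. The tiles fill 13 whole plates of 96 wells, while plate TC13 holds 34 wells and ends at well C10. All 1282 had a value in both replicates. None of the 21800 spots was named TC14 to TC16. Tile sequences, genes and genome coordinates were not analysed here, and a region is therefore a plate or a span of wells.

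Methylation of this lysine exists in mono-, di- and trimethylated forms, which are laid down by SET-domain enzymes and differ in where they lie. In animals the monomethylated form is placed by the enzyme known as SETD8 or PR-Set7 and is tied to the cell cycle and to chromosome compaction. In nuclei of Arabidopsis thaliana the monomethylated form has been seen by microscopy mainly in heterochromatin, the compact and largely silent part of the genome. A tiling array reads such a mark as the ratio of DNA pulled down with the antibody (IP) to total chromatin DNA (INPUT) at each tile.

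All samples were whole seedlings of Arabidopsis thaliana ecotype Col-0, untreated, labelled as 10 days old, and grown for 10 to 11 days in liquid medium at 22 °C with 16 h of light a day. They form 1 group of 2 replicates, called I and II, each from 15 µg per the labels' protocols, and each pair of IP and INPUT was hybridised on 2 arrays with exchanged dyes. Both arrays of a pair held identical values, which left 1 value per tile and replicate (n = 2) and no view of dye effects. Nothing in the labels says that the replicates came from separate cultures, so a p-value reflects the spread of these samples alone, which may be technical. Whole seedlings mix many cell types, so a mark in few cells and a weak mark in many cannot be told apart.

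Values are log ratios of unstated base, from which the median of all 21743 tiles in the same replicate was subtracted (-1.42 in replicate I and -1.15 in replicate II). The ratio is taken as likely IP over INPUT, because the upper tail of the array is the longer one. This was not stated in any source used here. With the sign turned, every "lower" below becomes "higher". The number of replicates limits the precision, and no depth applies.

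The first question was where TC00 to TC13 stood on the array. Its tiles lay slightly under the median of all tiles, at a level that was nearly that of the plates named before it and far from that of the plates named after it. In replicate I the median was -0.259 and in replicate II it was -0.174, which gave a mean of -0.217 ± 0.0600 (SD, n = 2). The quartiles were -0.597 and 0.0838 in replicate I, and -0.495 and 0.183 in replicate II. Both spans include 0, so the shift was small against the spread of single tiles (SD 0.530 and 0.494). In replicate I 29.9% of the tiles lay above 0, and in replicate II 37.0% did.

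The size of this shift depended on the reference. The median of all tiles includes 3 stretches of plates with high log ratios (TC17 to TC30, TA21 to TA30 and TA35 to TA51), and without them the median of the tiles fell to -0.109 (replicate I) and -0.0898 (replicate II). Against this lower reference, chosen after the values were seen, TC00 to TC13 lay at -0.117 ± 0.0464 (SD, n = 2). Without any centring its deposited medians were -1.68 and -1.32.

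Plates TB90 to TB99, which come just before in the order of names, held 960 tiles with medians of -0.269 (I) and -0.214 (II). TC00 to TC13 lay above them by 0.00996 in replicate I and by 0.0399 in replicate II, on average by 0.0250 ± 0.0212 (SD, n = 2). This is a small fraction of the tile spread, and the distributions lay almost on top of each other in replicate I. The exact permutation test over sign flips of the 2 replicates gave a two-sided p = 0.5, the smallest this test can give with 2 replicates, so it could not have called a difference of any size. In replicate I 50.6% of the tiles of TC00 to TC13 lay above the median of TB90 to TB99, and in replicate II 53.5% did.

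Plates TC17 to TC30, the other part of set TC, held 1123 tiles with medians of 0.942 and 0.713. TC00 to TC13 lay under them in both replicates, with differences of -1.20 (I) and -0.887 (II), on average -1.04 ± 0.222 (SD, n = 2). The exact permutation p was again 0.5, the smallest this test can give. Of the 1282 tiles, 37 (2.89%) lay above the median of TC17 to TC30 in replicate I, 52 (4.06%) did so in replicate II, and 6 (0.468%) did so in both. In the other direction, 1 of 1123 tiles of TC17 to TC30 (0.0890%) lay under the median of TC00 to TC13 in both replicates. TC17 to TC30 was picked earlier for its high values, so the size of this gap is a description.

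**Figure D1:**
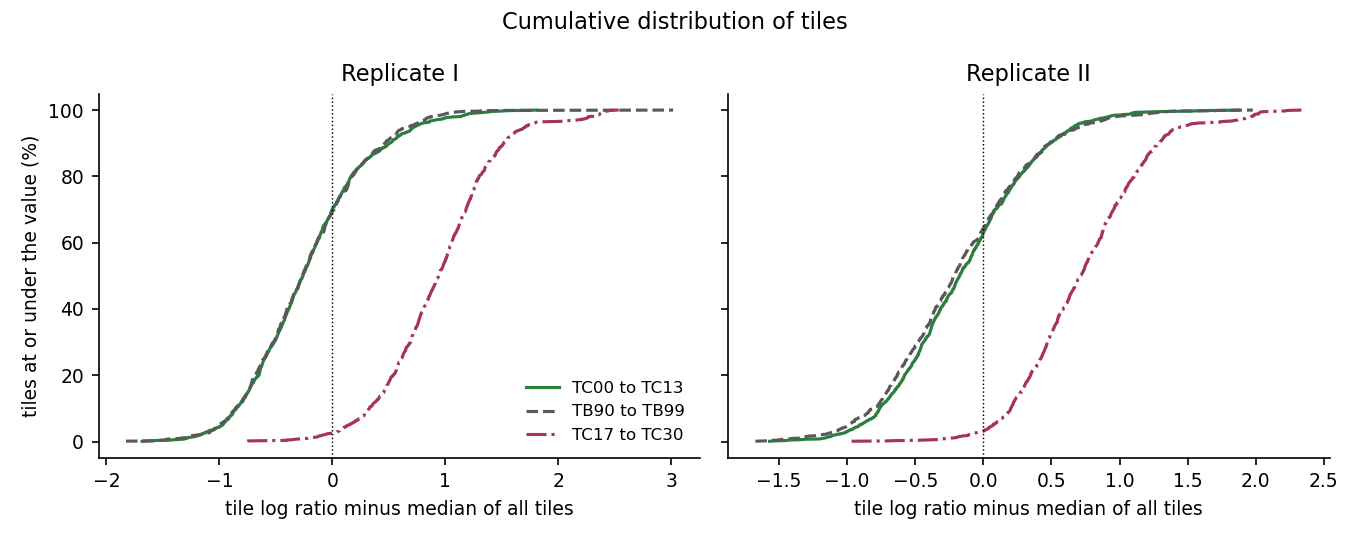
Cumulative share of tiles (%) against the tile log ratio minus the median of all tiles, for replicates I and II, in TC00 to TC13 (solid), TB90 to TB99 (dashed) and TC17 to TC30 (dash-dotted). The curves of TC00 to TC13 and TB90 to TB99 cross their medians at -0.259 and -0.269 in replicate I, while that of TC17 to TC30 does so at 0.942.

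The second question was whether the level was even along the 14 plates. All 14 plate medians were below 0 in both replicates. They ran from -0.391 (TC09) to -0.0453 (TC04) in replicate I and from -0.294 (TC09) to -0.0230 (TC12) in replicate II. Averaged over replicates, the lowest was TC09 at -0.343 ± 0.0683 (SD, n = 2), which was 3rd lowest of all 231 plates, and the highest was TC03 at -0.137 ± 0.0897 (SD, n = 2), which ranked 91 from the lowest. Ordered by level, none of the 13 pairs of neighbouring plates differed by more than the larger SD of its members. The largest such gap was 0.0351, between TC09 and TC02. Sorting makes gaps between neighbours small, so they cannot show whether the level was even. From lowest to highest the plate means spanned 0.206, while the largest SD of a plate was 0.170 (TC12).

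By limma on plate medians, 7 of the 14 plates were called lower (adjusted p at most 0.05), where 25.5% of all 231 plates were. None was called higher (also 0 at an unadjusted p under 0.05 in limma), where 22.9% of all plates were. Of TB90 to TB99, 8 of 10 plates were called lower. The calls in TC00 to TC13 were TC09 (limma adjusted p = 0.0109), TC06 at -0.303 ± 0.0488 (limma adjusted p = 0.0153), TC02 at -0.308 ± 0.0982 (limma adjusted p = 0.0177), then TC05, TC07, TC01 and TC13 with means from -0.274 to -0.201. The other 7 plates had means from -0.200 to -0.137 and limma adjusted p-values from 0.0575 to 0.161. The count hung on the setting: limma called 2 plates lower against the reference outside the high stretches (7 of all 231, 3.03%), 0 at an adjusted p of at most 0.01 (10 at an unadjusted p under 0.05; also 0 of all 231), and all 14 when the replicates were scaled to equal median absolute deviations (100 of all 231, 43.3%).

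**Figure D2:**
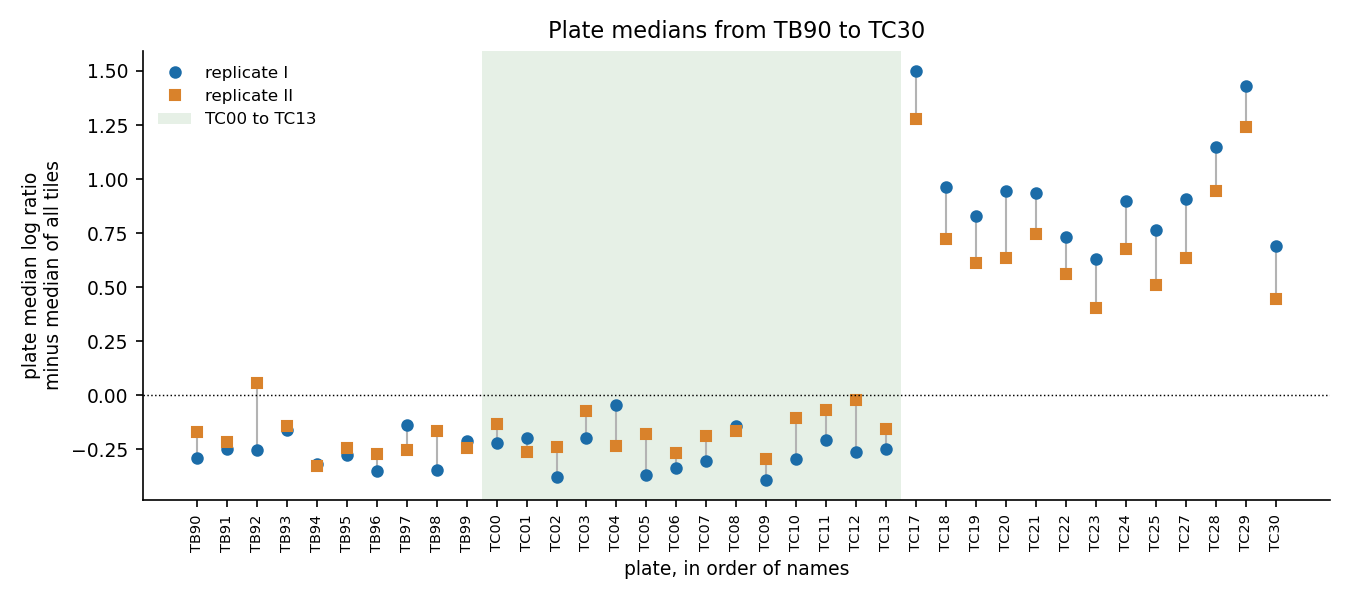
Median log ratio of each plate minus the median of all tiles, for TB90 to TC30 in the order of names, with replicate I as circles and replicate II as squares joined by a line. The 14 shaded plates TC00 to TC13 lie between -0.391 and -0.0230, and the plates of TC17 to TC30 start at 0.402.

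The replicates gave the order of these plates only loosely. Across the 14 plate medians r was 0.220 (Pearson) and 0.345 (Spearman), as a description of plates that share the same arrays. Replicate II was lower than replicate I on 3 plates (TC01, TC04 and TC08) and higher on the other 11. For the 10 plates of TB90 to TB99 r was 0.131 (Pearson) and 0.2 (Spearman). For the 13 plates of TC17 to TC30 r was 0.991 (Pearson). The plate means of TC17 to TC30 ranged more widely, from 0.515 to 1.39 against -0.343 to -0.137 in TC00 to TC13.

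At the start of TC00 to TC13 no step was seen. Plate TB99 had medians of -0.212 and -0.243, and TC00 had -0.220 and -0.135, so the order of both plates changed between replicates. At the end the step was large, but it spanned a gap in the names from TC13C10 to TC17D01, whereas TB99H12 and TC00A01 follow each other. TC13 had medians of -0.247 and -0.156, and TC17, whose first tile is at well D01, had 1.499 and 1.28. The lowest tile of TC17 was at 0.638 (I) and 0.620 (II).

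The last wells of TC13 rose well by well in replicate I and not in replicate II. In replicates I and II, TC13C07 had -0.372 and 0.279, TC13C08 had 0.533 and 0.145, and TC13C09 had 0.857 and 0.187. The last tile, TC13C10, had 1.805 and 1.44. Its value in replicate II was inside the range of the TC17 tiles (0.620 to 1.57), and its value in replicate I was just above their highest (1.801). The 3 tiles before it were not called (limma adjusted p from 0.189 to 0.928) and were chosen after their values were seen.

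The third question was which single tiles stood out. Of the 1282 tiles, 79 (6.16%) were called lower than the median of all tiles, where 3.88% of all tiles were, and 15 (1.17%) were called higher, where 8.24% of all tiles were (limma with Benjamini-Hochberg adjustment over 21743 tiles, adjusted p at most 0.05, n = 2). Among the tiles outside the 3 high stretches the shares were 4.57% lower and 2.08% higher. TB90 to TB99 had 79 lower (8.23%) and 8 higher (0.833%). TC17 to TC30 had 0 lower in limma and 601 higher (53.5%). The share of lower calls in TC00 to TC13 thus stood between that of the tiles outside the stretches and that of TB90 to TB99, and these differences were not tested.

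The tile counts also hung on the reference. Against the median of tiles outside the high stretches limma called 46 lower, where 2.09% of all tiles were, and 27 higher, where 10.3% of all tiles were. With the mode of each replicate as its centre it called 46 lower (2.13% of all tiles) and 19 higher (8.84% of all tiles). Both of these centres lay lower in each replicate. Over the whole array limma then called 455 and 463 tiles lower, against 844, and 2244 and 1923 higher, against 1792. The prior degrees of freedom of limma also rose, from 21.7 to infinite, and the cause of these changes was not tested. With equal median absolute deviations limma called 0 in either direction (236 lower and 59 higher at an unadjusted p under 0.05), where 0% and 0.235% of all tiles were called. With plate means removed it also called 0 (103 lower and 103 higher unadjusted), where 0 lower and 1 higher of all 21743 tiles were called. The unadjusted counts were made for TC00 to TC13 only. In these 2 settings the prior degrees of freedom of limma were 4.25 and 4.55, against 21.7. By size, with no test, 9 tiles (0.702%) lay under -1 in both replicates, where 0.419% of all tiles did, and 4 (0.312%) lay above 1 in both, where 2.83% of all tiles did.

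The lower calls were of modest size, from -1.55 to -0.762 with a median of -0.909, and were found on all 14 plates. TC06 held 12 of them, TC02 and TC09 held 11 each, and TC00 and TC13 held 1 each. The 15 higher calls came from 8 plates, with means from 0.833 to 1.62.

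The lowest called tile was TC02H05, at -1.56 (I) and -1.54 (II) (mean -1.55 ± 0.0179, SD, n = 2, limma adjusted p = 0.000511). The well before it had -0.0189 and 0.00830, and the well after it had -0.612 and -0.771 and was not called. The next lowest, TC09C02, had -1.45 and -1.42 (mean -1.43 ± 0.0190, SD, n = 2, limma adjusted p = 0.00104). The well before TC09C02 had -0.717 and -0.909, and the well after it had -0.461 and 0.444.

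The highest called tile was TC13C10 at the very end of the plates (mean 1.62 ± 0.258, SD, n = 2, limma adjusted p = 0.000355). The next, TC07A05, had 1.40 and 0.941 (mean 1.17 ± 0.327, SD, n = 2, limma adjusted p = 0.00460), while the wells on either side had 0.349 and 0.226 in replicate I and -0.332 and -0.470 in replicate II. All 4 named tiles had a limma adjusted p above 0.05 with equal median absolute deviations (0.0664 to 0.0681) and with plate means removed (0.239), although their means then ran from -1.56 to -1.13 for the lower pair and from 1.16 to 1.78 for the higher pair.

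**Figure D3:**
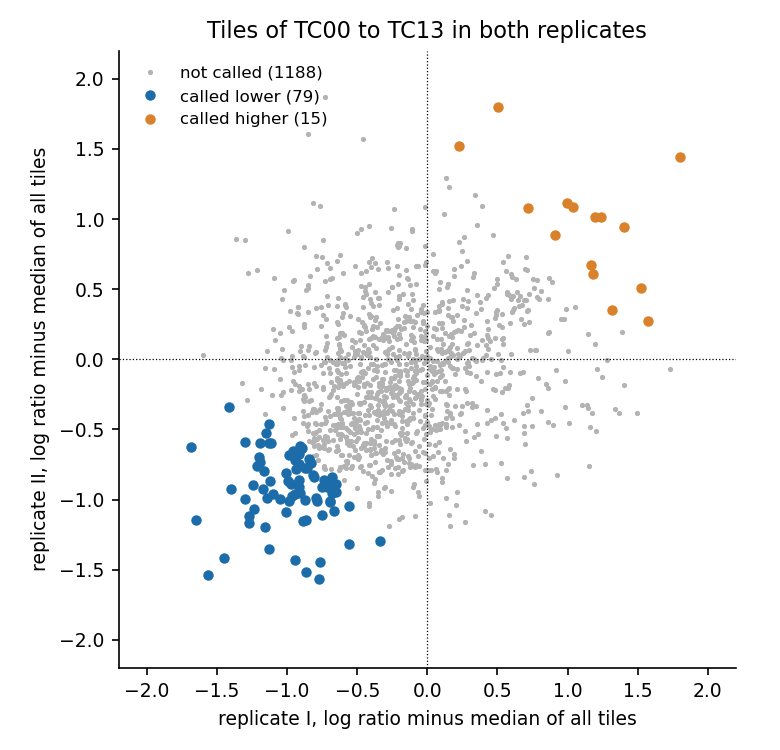
Each of the 1282 tiles of TC00 to TC13 by its log ratio minus the median of all tiles in replicate I (horizontal) and replicate II (vertical). The 79 tiles called lower lie in the lower left, the 15 called higher in the upper right, and the other 1188 form a round cloud.

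Low calls came partly in pairs of wells. Of the 79, 31 (39.2%) belonged to 14 runs, each of 2 or more wells in a row, and 48 stood alone. In TB90 to TB99 38 of 79 (48.1%) were in runs, and of the 601 higher calls in TC17 to TC30 533 (88.7%) were. The more tiles are called, the more calls fall side by side. Such calls made up 6.16% of the tiles in TC00 to TC13, 8.23% in TB90 to TB99 and 53.5% in TC17 to TC30. The shares in runs therefore do not compare how strongly calls cluster. The longest low run of TC00 to TC13 had 4 wells, TC09C05 to TC09C08, at an average of -1.27 (I) and -0.971 (II). With TC09C01 and TC09C02 it put 6 of the 12 wells of row C of TC09 among the lower calls, and the median of that row was -0.647 and -0.884. The longest run of higher calls was 2 wells and was reached 3 times, first in name order by TC03C07 and TC03C08 with a mean over both wells of 1.12 (I) and 1.05 (II).

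The fourth question was how far the replicates shared the pattern inside TC00 to TC13. They shared little of it. Pearson's r over the 1282 tiles was 0.275 and Spearman's rho 0.268, although tiles are not independent. In TB90 to TB99 r was 0.239, in TC17 to TC30 0.787 and over all tiles 0.537. Over the tiles outside the 3 high stretches r was 0.359. A share of 48.3% of the tiles lay below 0 in both replicates and 15.1% above 0 in both, where 33.6% of all tiles did each. The replicates gave opposite signs for 469 tiles (36.6%), against 32.7% of all tiles. Outside the 3 high stretches this share was also 36.6%, and in TB90 to TB99 it was 40.2%. The tile spread was alike in the 3 groups of plates (SD 0.500 to 0.530 in replicate I), but the SD of the difference between replicates was 0.617 in TC00 to TC13 and 0.647 in TB90 to TB99 against 0.315 in TC17 to TC30. TC17 to TC30 was chosen for high values in both replicates, and its larger r only describes it.

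By plate, r ran from -0.230 in TC10 to 0.624 in TC13, with a median of 0.311. The value of TC10 was the lowest of all 231 plates on the array, of which 3 had an r below 0, and this plate was singled out after its value was seen. In TC10 48 of 96 tiles had opposite signs in the replicates. Its row D had medians of -0.375 (I) and 0.388 (II), and with row medians removed r was still -0.226. Without TC10, r over the other tiles of TC00 to TC13 was 0.318. In TC13, which has only 34 tiles, Spearman's rho was 0.355.

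**Figure D4:**
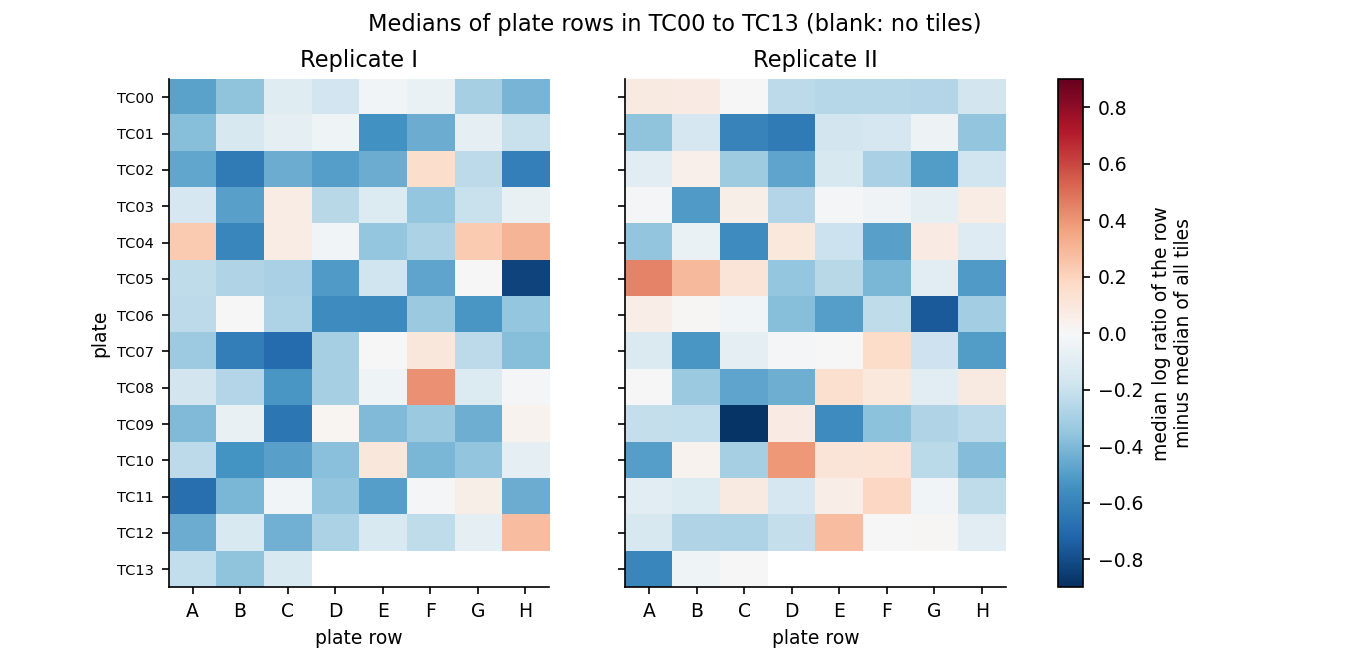
Medians of the rows A to H of each plate from TC00 to TC13, as log ratio minus the median of all tiles, in replicate I (left) and replicate II (right), with blue below 0 and red above. Row C of TC09 is low in both panels (-0.647 and -0.884), whereas row D of TC10 is below 0 on the left and above 0 on the right (-0.375 and 0.388).

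Tiles next to each other in the order of names had like values, but mostly within 1 replicate. Over 1281 pairs of next wells, r was 0.366 within replicate I and 0.364 within replicate II. When a well of replicate I was paired with the next well of replicate II, or the reverse, r averaged 0.108. For replicate I minus II, next wells had r = 0.354, against 0.341 in TB90 to TB99, 0.367 in TC17 to TC30 and 0.377 over all tiles. In TB90 to TB99 the value across replicates was 0.0891, against 0.348 within them, much as in TC00 to TC13. In TC17 to TC30 the value across replicates was 0.646, against 0.724 within them. At 2 wells apart the mean correlation within replicates of TC00 to TC13 fell to 0.152 and at 6 wells to 0.0265. At 12 wells, the next row of the plate, it was -0.0272, where TC17 to TC30 still had 0.3005. These are descriptions over pairs that share tiles and arrays.

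**Figure D5:**
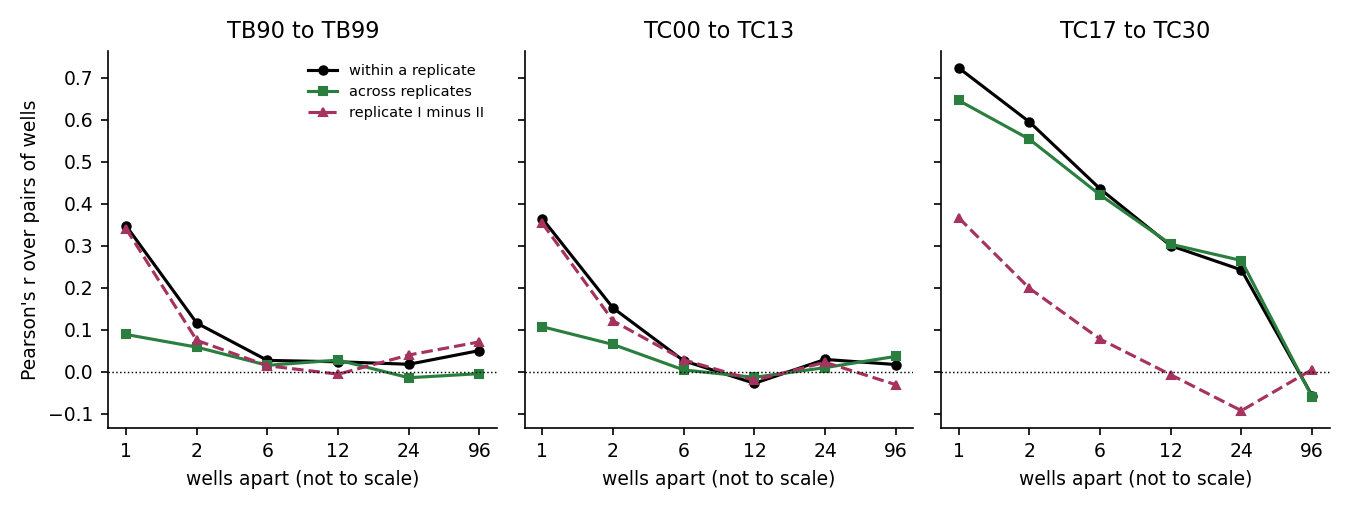
Pearson's r between wells 1 to 96 apart in the order of names, within a replicate (circles, mean of both), across replicates (squares) and for replicate I minus II (triangles), in the 3 groups of plates. In TC00 to TC13 the r at 1 well is 0.365 within and 0.108 across replicates, and in TC17 to TC30 it is 0.724 and 0.646.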

How the data were processed

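The authors' deposited table holds a score for each spot on each array, read here as a log ratio. Its base, direction, centring and normalization are not stated. Per the labels' protocols, amplified DNA was labelled directly with Cy3 and Cy5. For scanner, background correction and genome build, the sources used here give nothing.

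Tiles were chosen by name, and the median over 21743 tiles was subtracted per replicate. Means of 2 replicates were compared with 0 in limma 3.58.1 in R 4.3.3 (intercept, eBayes), two-sided, with Benjamini-Hochberg adjustment over the whole table. The fit had 1 residual degree of freedom, and prior degrees of freedom of 21.7 for tiles and 4.63 for 231 plate medians. Its p-values thus rest mainly on a spread pooled over all tiles or plates, not on the SD printed beside them. Named were the 2 highest and 2 lowest called tiles of the same sign in both replicates, the 14 plates, the longest runs and the neighbouring plates. Other tiles and rows were picked after their values were seen. The plates, groups of plates and alternatives were chosen with earlier results of these data known. Python 3.11.15, pandas 2.3.3, SciPy 1.17.1 and matplotlib 3.10.9 were used.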

Additional observations from a re-analysis of the deposited data

How the results depend on the processing

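Of 105 alternatives for 15 results, 64 changed little: counts by at most 1.5 times, values by less than the SD of the replicates (for the correlation of replicates, within 0.0499, from a 95% interval that treats tiles as independent) and named tiles stayed on their side of the threshold. With 2 replicates each lies within that SD of their mean. Single replicates were thus bound to count among the 64 and show no robustness. Tiles called lower (79) became 1210 with no centring (18973 of all tiles), 46 with the mode (463) and 46 with the reference outside the 3 high stretches (455). They became 143 with trend and robust prior (1549) and 21 at an adjusted p of at most 0.01 (174), where all tiles gave 844 as reported. Limma called 0 of them, and 0 of all tiles, with equal median absolute deviations (236 of TC00 to TC13 unadjusted) or plate means removed (103 unadjusted). Tiles called higher (15) became 0 in limma with no centring (0 unadjusted, 68 of all tiles). Equal deviations (59 unadjusted, 51) and plate means removed (103, 1) also gave 0. The 15 became 27 with the reference outside the stretches (2244 of all), 29 with trend and robust prior (2283) and 6 at 0.01 (872). All tiles gave 1792 as reported. Plates called lower (7) became 14 with no centring (228 of all plates), equal deviations (100), or trend and robust prior (98), 3 with the mode (10), 2 with the reference outside the stretches (7) and 0 in limma at 0.01 (10 unadjusted at 0.05). The median (-0.217; single replicates -0.259 to -0.174) became -1.50, -0.151 and -0.117 with no centring, the mode and that reference. The differences from TB90 to TB99 and from TC17 to TC30 were 0.00996 to 0.0399 and -1.20 to -0.887 in single replicates. Tiles under -1 in both replicates (9) became 857 with no centring, 4 with plate means removed and 38 to 56 in single replicates. Tiles above 1 (4) became 0, 7 and 20 to 31. Neither was recounted over all tiles. The correlation between next wells (0.365) was 0.345 with plate means removed, and 0.364 to 0.366 in single replicates. TC07A05 reversed to -0.111 with no centring, and 9 other settings of named tiles ended a call. Without centring most values lie under 0, a stricter threshold lowers counts by construction, and 1 replicate passes more easily than both; for the rest the cause was not tested. Signal over background cannot be read from ratios. No paired analysis of sample groups was possible because only 1 exists; differences between groups of plates were taken within each replicate. The reference outside the stretches, leaving out TC10 and removing row medians were added after the data were seen.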

Other observations

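Over the 13 full plates, medians by plate row, averaged over replicates, ran from -0.267 (row C) to -0.172 (row E), and medians by column from -0.293 (column 5) to -0.144 (column 7). By replicate, column medians ran from -0.411 to -0.161 (I) and from -0.313 to -0.0469 (II). The 4 interleaved grids of odd or even rows and columns ran from -0.240 to -0.198. None of the 8 rows or 12 columns had a median above 0 in either replicate.

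Of the 107 plate rows of TC00 to TC13, 72 had medians below 0 in both replicates, 6 above 0 in both and 29 of opposite sign. The row most above 0 was F of TC08, at 0.410 (replicate I) and 0.0927 (replicate II). The replicates differed by more than 0.5 in 15 rows. The extremes of each sign, replicate I minus II, were -0.763 in row D of TC10 and 0.630 in row C of TC04. In TB90 to TB99 5 of 80 rows differed by more than 0.5, and this contrast was not tested. The SD of the row differences was nearly the same, 0.288 in TC00 to TC13 and 0.280 in TB90 to TB99. In TB90 to TB99 the differences ran from -0.768 to 0.621. These rows were looked at after their values were seen.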
